A study of Mus musculus with 27 samples.

Results

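The genes of plasminogen activation and fibrinolysis were described in the livers of 27 mice. They are Plg (plasminogen), Plau (urokinase), Plat (tissue plasminogen activator), Plaur (the urokinase receptor), Serpine2 (protease nexin-1) and Serpinf2 (alpha-2-antiplasmin). They were chosen by name, with earlier results of these data known, and are 6 of the 55414 genes counted. All 6 averaged 10 counts or more over the libraries and were among the 14114 genes tested.

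Plasminogen is made by hepatocytes and circulates as an inactive proenzyme. Urokinase and tissue plasminogen activator cut it to plasmin, a protease that dissolves fibrin and takes part in the breakdown of extracellular matrix, and the urokinase receptor holds urokinase at the surface of cells. Alpha-2-antiplasmin is the main inhibitor of plasmin in blood, and protease nexin-1 inhibits thrombin, urokinase and plasmin close to cell surfaces.

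All mice were 8-week-old female Balb/c animals, and RNA was taken from whole liver. Mice with fibrosis received carbon tetrachloride (CCl4), a liver toxin, by intraperitoneal injection for 2 weeks, and mice without fibrosis received olive oil in its place. Control mice (n = 4) also received saline (PBS) through the tail vein. Of the other mice without CCl4, the 4MU group (n = 3) was gavaged daily with 4-methylumbelliferone, an inhibitor of hyaluronan synthesis, the siHAS2-LNP group (n = 3) was injected with lipid nanoparticles carrying an siRNA against hyaluronan synthase 2, and the siLuc-LNP group (n = 3) with the same kind of particles carrying an siRNA against luciferase, a gene mice do not have. The particles were given first at 1 mg/kg and then at 0.5 mg/kg of siRNA, and all treatments began 2 days before the first CCl4 injection. The fibrotic groups were CCl4 alone (n = 2), CCl4+4MU (n = 4), CCl4+siLuc-LNP (n = 4) and CCl4+siHAS2-LNP (n = 4). The labels name no second injection or gavage for the CCl4 group. The authors state that control mice received a gavage of carboxymethyl cellulose without 4MU, but not which groups this covers. A homogenate of the whole organ cannot tell fewer cells of a type from less RNA per cell.

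Libraries held 7044386 to 29425937 counts, so that 3 counts, taken as the limit of detection, corresponded to 0.102 to 0.426 CPM (counts scaled to the library total and corrected by the TMM method). The shallowest library was CCl4+siHAS2-LNP mouse 4. CCl4+4MU mouse 4 stood apart in its cell markers: 5 bile duct genes summed to 122 CPM there and to 6.02 to 11.1 CPM in the other mice of its group, and 3 smooth muscle genes to 33.6 against 0.399 to 2.36 CPM. All 5 hepatocyte markers were found in every group, at a sum of 68800 to 198000 CPM, and exocrine pancreas markers summed to at most 0.213 CPM. Has2, the target of the siRNA, had at most 2 counts in any library, so its knockdown could not be checked. The results below that rest on the shallow library or on CCl4+4MU mouse 4 are given with and without it where it changes a call.

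Sequence from the promoters is shown for the members whose entries hold a match to a motif searched, so that the letters stand beside the changes in their transcripts. The RefSeq promoter table (GRCm38.p6, 250 bases before to 50 after each start) has entries for 3 of the 6 members, Plaur, Serpine2 and Serpinf2. Both strands were searched for the AP-1 motif TGANTCA, the GC box GGGCGG and the TATA box TATAAA, and capitals mark the matches. The Plaur window lies at chr7:24462403-24462432 on the plus strand, 80 to 51 bases before the start, and the Serpine2 window at chr1:79858695-79858724 on the minus strand, 59 to 30 bases before the start.

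Plaur: acccctggagcTGACTCActctttagcaaa
Serpine2: ggcgGGGCGGGGCGGgccgggGGGCGGggg

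Plaur held 1 AP-1 match, which 7.81% of the 32851 promoters in the table also hold, and 3 GC boxes. Serpine2 held 6 GC boxes, some of which overlap one another, and no AP-1 match, and 35.7% of all promoters hold at least 1 GC box. Serpinf2 held none of the 3 motifs. A match is only a match of letters.

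Levels per kilobase of exon separated the members by more than 3 orders of magnitude in control livers. Plg stood at a mean of 740.1 CPM per kilobase and Serpinf2 at 365. Plau followed at 0.374, then Plaur at 0.0830, Plat at 0.0529 and Serpine2 at 0.0455 CPM per kilobase. The proenzyme and the plasmin inhibitor, which hepatocytes make, were therefore abundant, and the transcripts of both activators were rare. The value of Serpine2 depends on its exon length of 12315 bases, which joins 36 annotated transcripts. Plau, Plg, Serpine2 and Serpinf2 each overlap a gene of the opposite strand (Plau over its whole length), and since the strand setting of the counting was not given in the sources used here, their counts are uncertain by what those genes add. In CCl4 mice the means were 490.6 for Plg, 410.4 for Serpinf2, 6.24 for Plau, 1.01 for Plat, 0.936 for Plaur and 0.168 for Serpine2.

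Plg, the gene of the proenzyme (ENSMUSG00000059481, GRCm39 chromosome 17, 12597491 to 12638272), was the most abundant member. It had 3186, 2439, 2330 and 3100 CPM in the control mice and 2310 and 1354 CPM in the CCl4 mice. Both CCl4 mice were below every control mouse, by little in mouse 1 and clearly in mouse 2. The log2 fold change was −0.59 (standard error, SE, 0.268) and did not pass the threshold of 0.05 (adjusted p = 0.0894). All adjusted p-values are Benjamini-Hochberg values of the quasi-likelihood test in edgeR, taken over every gene tested. Without CCl4 mouse 1 it was −1.01 and passed (adjusted p = 0.0256), and without CCl4 mouse 2 it was −0.24 (adjusted p = 0.669). The same mouse had the lowest hepatocyte marker sum of all libraries, 68790 CPM against 121700 CPM in CCl4 mouse 1 and 162000 to 198000 CPM in control mice. The part of hepatocyte content in the level of Plg was not tested.

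Of the other mice without CCl4, Plg had 3257, 2505 and 2613 CPM with 4MU, 1671, 2458 and 2702 CPM with siLuc-LNP and 2910, 2566 and 2783 CPM with siHAS2-LNP, where siLuc-LNP mouse 1 was the lowest. Plg in the treated fibrotic groups lay within the range of the mice without CCl4, 1671 to 3257 CPM, except in 2 mice. These were CCl4+4MU mouse 2, above it at 3624 CPM, and CCl4+siHAS2-LNP mouse 3, below it at 1498 CPM. CCl4 mouse 1, at 2310 CPM, also lay within that range. CCl4+4MU mice had 3143, 3624, 2479 and 2424 CPM, all above both CCl4 mice, as for 22.9% of all genes. CCl4+siLuc-LNP mice had 1803, 2849, 2211 and 1970 CPM, and CCl4+siHAS2-LNP mice 2284, 2650, 1498 and 2690 CPM. Both of these groups overlapped the CCl4 group. Against CCl4, the log2 fold change was 0.67 (SE 0.269, adjusted p = 0.0813) with 4MU, and without CCl4 mouse 1 it was 1.09 (adjusted p = 0.0291). It was 0.27 (adjusted p = 0.694) with siLuc-LNP and 0.32 (adjusted p = 0.443) with siHAS2-LNP.

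Plau, Plat, Plaur and Serpine2 rose in CCl4 livers, by between 3.69 and 18.6 times, so that 4 of the 6 members passed the threshold, all higher. Of all genes tested, 34.1% passed in this comparison, and 18% passed as higher. The groups of 4 members did not overlap with the CCl4 mice higher, as for 25.7% of all genes, and those of Plg did not overlap with the CCl4 mice lower, as for 24.9%.

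Plau, the gene of urokinase (ENSMUSG00000021822, chromosome 14, 20886722 to 20893453), had 1.42, 0.531, 1.02 and 0.858 CPM in control mice, from 9 to 28 counts, and 14.8 and 17.2 CPM in CCl4 mice, from 304 and 458 counts. Both CCl4 mice agreed closely and stood more than 10 times above the highest control mouse. The fold change was 16.5 (log2 4.05, SE 0.531, adjusted p = 2.79e-06), and the log2 value was 3.95 (adjusted p = 7.49e-05) without CCl4 mouse 2.

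Plat, the gene of tissue plasminogen activator (ENSMUSG00000031538, chromosome 8, 23247709 to 23272871), had 0.458, 0.177, 0.555 and 0.286 CPM in control mice, from 3 to 13 counts, and 3.5 and 10.6 CPM in CCl4 mice, from 72 and 282 counts. The control values are thus near the limit of detection, which makes the size of the fold change uncertain. The CCl4 mice differed from each other by about 3 times, and the lower of them was still far above the controls. The fold change was 18.6 (log2 4.22, SE 0.570, adjusted p = 4.21e-06), and without CCl4 mouse 2 the log2 value was 3.22 (adjusted p = 0.00138).

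Plaur, the gene of the receptor (ENSMUSG00000046223, chromosome 7, 24161875 to 24175394), had 0.203, 0.413, 0.384 and 0.327 CPM in control mice, from 4 to 9 counts, and 2.48 and 5.01 CPM in CCl4 mice. Again CCl4 mouse 2 was the higher and the groups were well apart. The fold change was 11.2 (log2 3.48, SE 0.548, adjusted p = 3.03e-05).

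Serpine2, the gene of protease nexin-1 (ENSMUSG00000026249, chromosome 1, 79763323 to 79839144), had 0.508, 0.590, 0.896 and 0.245 CPM in control mice and 1.65 and 2.48 CPM in CCl4 mice. The groups did not overlap, but the counts were low, from 6 to 66. The fold change was 3.69 (log2 1.88, SE 0.673, adjusted p = 0.0327). This call was lost without any 1 of control mice 1, 2 and 4 (adjusted p = 0.0600, 0.0544 and 0.0865) and without CCl4 mouse 2 (adjusted p = 0.233), and with the replicate number as a block (adjusted p = 0.0708).

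Serpinf2, the gene of alpha-2-antiplasmin (ENSMUSG00000038224, chromosome 11, 75322543 to 75330987), is expressed, like Plg, in hepatocytes. It ranged from 1223 to 1677 CPM in control mice and had 2134 and 1108 CPM in CCl4 mice, the highest and the lowest values of the 6. The log2 fold change was 0.17 (SE 0.222, adjusted p = 0.578). The 4MU mice (1346 to 1527 CPM), siLuc-LNP mice (1377 to 1516 CPM) and siHAS2-LNP mice (1308 to 1432 CPM) were close to one another. CCl4+4MU mice had 1578 to 2253 CPM, above all of these, and CCl4+siLuc-LNP mice 1258 to 2063 CPM.

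**Figure D1:**
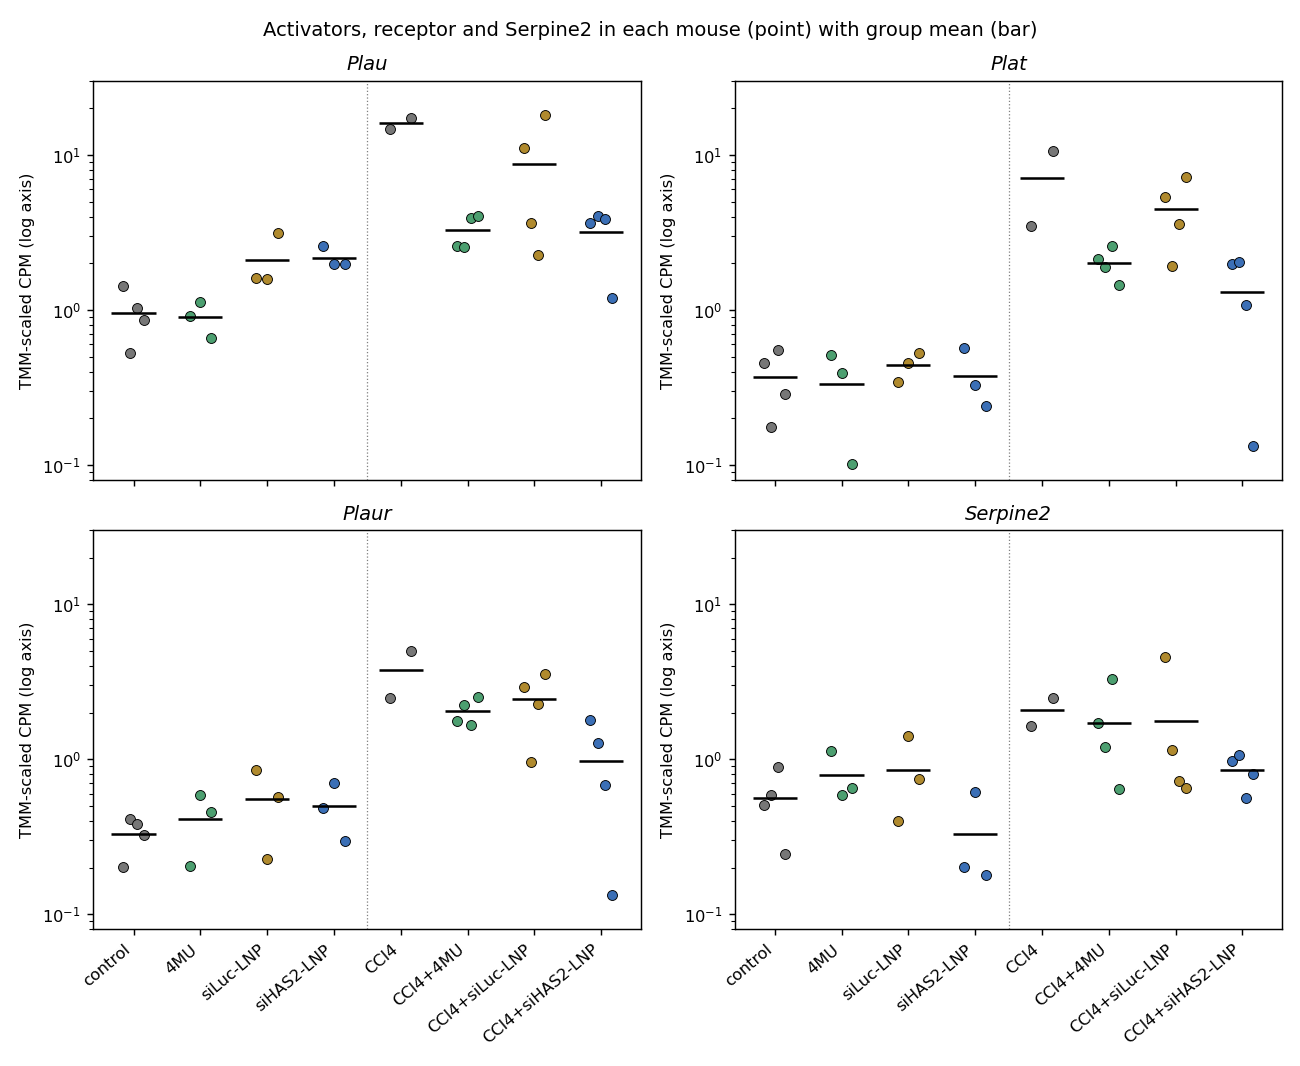
TMM-scaled CPM (log axis) of Plau, Plat, Plaur and Serpine2 in each of the 27 mice (points), with the mean of each group (bars) and the groups without CCl4 left of the dotted line. Plau in the 2 CCl4 mice sits at 14.8 and 17.2 CPM, above every mouse without CCl4, and CCl4+siHAS2-LNP mouse 4, the shallowest library, is the lowest of its group for Plau, Plat and Plaur.

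**Figure D2:**
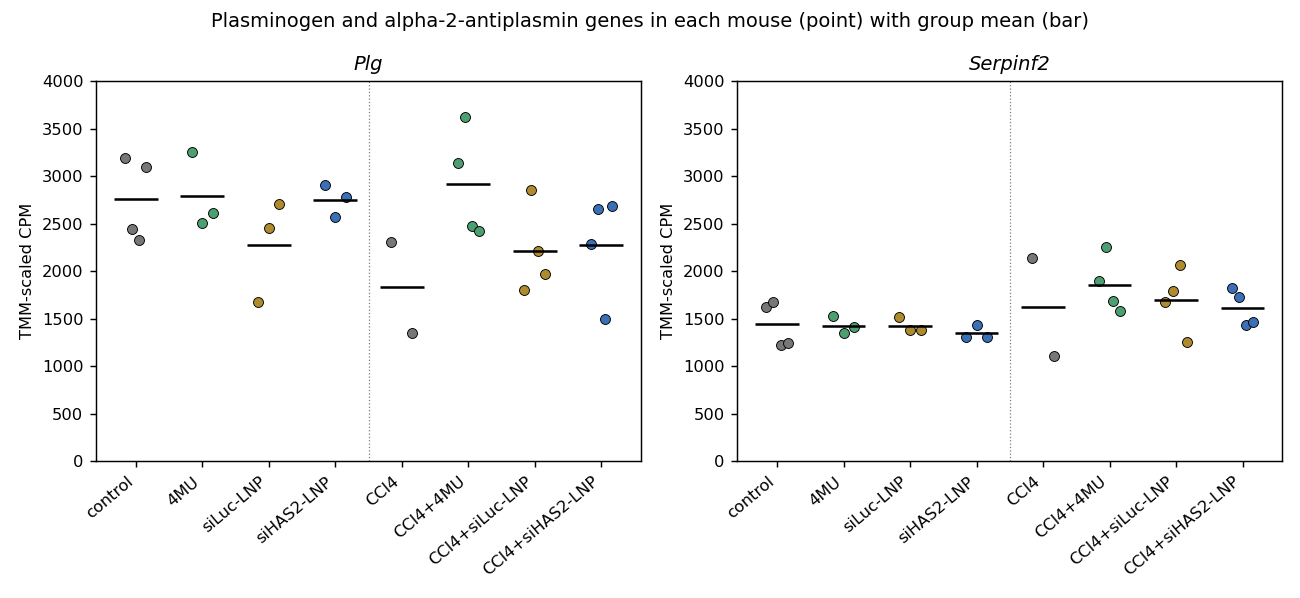
TMM-scaled CPM (linear axis from 0) of Plg and Serpinf2 in each of the 27 mice (points), with the mean of each group (bars). Plg in the CCl4 mice, at 2310 and 1354 CPM, lies below the control mice, and Serpinf2 overlaps between CCl4 and control mice.

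The markers of cells in the scar moved in the same comparison. Of 7 stellate cell and myofibroblast markers, 6 were higher in CCl4 than in control mice, and their sum was 556 and 748 CPM in the CCl4 mice against 69.2 to 117 CPM in control mice. Of 5 markers of infiltrating monocytes and macrophages, 5 were higher, with sums of 180 to 234 against 56.5 to 111 CPM, and of 3 mesothelial markers 3 were higher, with sums of 13.3 to 30.9 against 0.826 to 6.66 CPM. Of 5 hepatocyte markers, 4 were lower. The part of these cells in the rise of Plau, Plat, Plaur and Serpine2 was not tested.

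The same effect of CCl4 was measured inside each treatment. With 4MU, 3 of 6 members were higher in CCl4+4MU than in 4MU mice (background 23.7%, and 13.2% higher). Plau had 2.58, 2.54, 3.95 and 4.05 CPM with CCl4 and 0.921, 1.13 and 0.658 CPM without it. Every CCl4+4MU mouse was above every 4MU mouse for Plau, Plat, Plaur and Serpinf2, as for 18.3% of all genes. The log2 fold changes were 1.85 (SE 0.535, adjusted p = 0.0141) for Plau, 2.56 (SE 0.593, adjusted p = 0.00278) for Plat and 2.26 (SE 0.535, adjusted p = 0.0034) for Plaur. The call of Plau was lost in limma-voom (adjusted p = 0.0649) and without 4MU mouse 3 (adjusted p = 0.0697). Plat rose from 0.512, 0.39 and 0.101 CPM, the last from 2 counts and under its library's floor of 0.144 CPM, to 2.15, 1.89, 2.58 and 1.46 CPM. Plaur rose from 0.205, 0.585 and 0.455 CPM to 1.76, 2.24, 1.66 and 2.52 CPM.

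With siLuc-LNP, the same count of 3 members was higher (background 24.2%, and 13% higher), and the CCl4 mice were spread more widely. Plau had 11.1, 3.66, 2.28 and 18.2 CPM in CCl4+siLuc-LNP mice and 1.6, 1.59 and 3.12 CPM in siLuc-LNP mice. Mice 1 and 4 lay near the CCl4 group, and mice 2 and 3 near the mice without CCl4, so the groups overlapped. The log2 fold change of Plau was 2.06 (SE 0.497, adjusted p = 0.00375), and it was lost when the fit held just these 2 groups (adjusted p = 0.0721). Plat had 5.32, 1.93, 3.60 and 7.20 CPM against 0.343, 0.455 and 0.527 CPM, or 3.33 on the log2 scale (SE 0.580, adjusted p = 0.000169). Plaur had 2.94, 0.963, 2.28 and 3.57 CPM against 0.857, 0.228 and 0.571 CPM, or 2.13 on the log2 scale (SE 0.525, adjusted p = 0.00432). In both genes all CCl4+siLuc-LNP mice were higher than all siLuc-LNP mice, as for 13.7% of all genes.

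With siHAS2-LNP, Plat alone was higher, 1 of 6 members (background 12.8%, and 7.74% higher). It had 1.99, 2.05, 1.08 and 0.133 CPM in CCl4+siHAS2-LNP mice, the last from 1 count in the shallowest library, and 0.565, 0.330 and 0.239 CPM in siHAS2-LNP mice. The deeper 3 libraries were above all siHAS2-LNP mice and the shallowest was below them, under its own floor of 0.426 CPM. The log2 fold change was 1.85 (SE 0.593, adjusted p = 0.0399). It did not pass without CCl4+siHAS2-LNP mouse 1, 2 or 3 (adjusted p = 0.0939, 0.109 and 0.0514), without siHAS2-LNP mouse 1, 2 or 3 (adjusted p = 0.0600, 0.135 and 0.142), in limma-voom (adjusted p = 0.217) or with the replicate number as a block (adjusted p = 0.0571). Plau had 3.64, 4.05, 3.85 and 1.20 CPM against 2.58, 1.98 and 1.97 CPM, a log2 difference of 0.60 (95% interval −0.43 to 1.63, adjusted p = 0.47). Plaur had 1.80, 1.27, 0.682 and 0.133 CPM against 0.484, 0.707 and 0.299 CPM, a log2 difference of 1.06 (95% interval −0.07 to 2.19, adjusted p = 0.207). For both genes 3 of the 4 CCl4+siHAS2-LNP mice were above the mean of the siHAS2-LNP mice, and the groups overlapped. For Plau the overlap came from the shallowest library alone, and the deeper 3 were above every siHAS2-LNP mouse. Leaving out 1 mouse at a time, the log2 difference of Plau ran from 0.49 to 0.82, and it passed in no alternative setting. Serpinf2, by contrast, was higher in each CCl4+siHAS2-LNP mouse, at 1437 to 1826 CPM against 1308 to 1432 CPM, as for 15.2% of all genes, with a log2 difference of 0.26 (adjusted p = 0.435).

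Serpine2 did not pass in any of the 3 treated arms. Its log2 differences were 1.12 with 4MU, 1.06 with siLuc-LNP and 1.34 with siHAS2-LNP (adjusted p = 0.200, 0.224 and 0.239). In CCl4+4MU mice it had 1.72, 1.20, 3.29 and 0.640 CPM, in CCl4+siLuc-LNP mice 4.54, 1.16, 0.720 and 0.658 CPM, and in CCl4+siHAS2-LNP mice 0.978, 1.07, 0.561 and 0.800 CPM. Single mice of the first 2 groups were thus higher than the rest of their group. Without CCl4 it had 1.13, 0.585 and 0.658 CPM with 4MU, 0.4, 1.42 and 0.746 CPM with siLuc-LNP and 0.202, 0.612 and 0.179 CPM with siHAS2-LNP, so that all 3 arms overlapped. The mean of the 4 CCl4 groups against the mean of the 4 groups without CCl4 gave a log2 difference of 1.35 for Serpine2 (SE 0.332, adjusted p = 0.0015). By the same measure Plau rose by 2.14 (adjusted p = 2.25e-07), Plaur by 2.23 (adjusted p = 2.12e-07), Plat by 2.99 (adjusted p = 6.72e-09) and Serpinf2 by 0.26 (adjusted p = 0.0328), 5 of 6 members against 51.9% of all genes passing and 26.3% of all genes passing as higher. Plg gave −0.21 (SE 0.119, adjusted p = 0.142). The call of Serpinf2 was lost without any 1 of 7 mice (adjusted p from 0.05 to 0.232).

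The order of the group means was alike for Plau, Plat and Plaur: CCl4, CCl4+siLuc-LNP, CCl4+4MU, CCl4+siHAS2-LNP and then the groups without CCl4. For Plau the CCl4+4MU and CCl4+siHAS2-LNP means were 3.28 and 3.18 CPM, and without the shallowest library the latter was 3.84 CPM, which reverses them. Neighbours in that order overlapped in their ranges, with 1 exception: for Plau, siLuc-LNP mice (1.59 to 3.12 CPM) were separate from control mice (0.531 to 1.42 CPM). Serpine2 followed the same order down to CCl4+4MU, with siLuc-LNP mice (mean 0.856 CPM) next to CCl4+siHAS2-LNP mice (0.853 CPM, or 0.871 CPM without the shallowest library). Plg had the lowest mean in CCl4 mice and the highest in CCl4+4MU mice, and every neighbour overlapped.

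The ratio of Plg to the sum of Plau and Plat per kilobase put the proenzyme beside its activators. It was 1304 to 2815 in control mice and 44.0 and 98.8 in the CCl4 mice, and it was 348 to 770 in CCl4+4MU, 65.0 to 448 in CCl4+siLuc-LNP and 242 to 1480 in CCl4+siHAS2-LNP mice, of which 1480 is the shallowest library and the other 3 were at 242 to 379. The transcripts of Plg thus outnumbered those of the activators in every mouse. Within the activators, Plau exceeded Plat per kilobase in every mouse, by 1.72 to 24.4 times. The highest ratio was in the shallowest library, where Plat had 1 count. These ratios depend on exon lengths of 2567 bases for Plau and 6973 bases for Plat, which joins 15 annotated transcripts. In CPM, CCl4+siLuc-LNP mouse 3 had more Plat (3.60) than Plau (2.28).

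**Figure D3:**
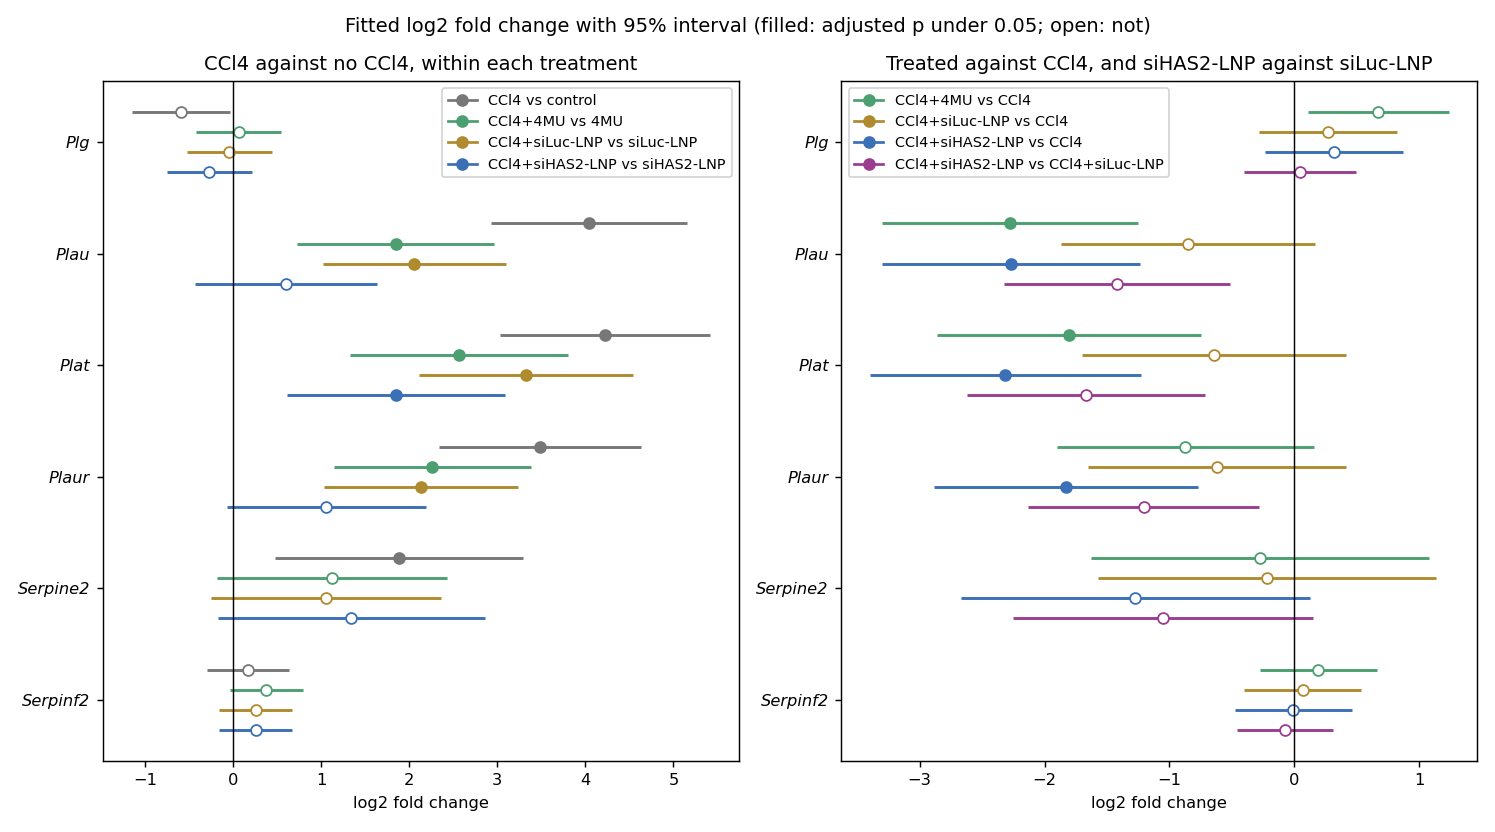
Fitted log2 fold changes of the 6 members (points) with 95% intervals from the standard error and 19 residual degrees of freedom (lines), for CCl4 against no CCl4 inside each treatment (left) and among the fibrotic groups (right). Filled points passed the adjusted threshold. Plau is 4.05 for CCl4 against control and 0.60, with an interval across 0, for CCl4+siHAS2-LNP against siHAS2-LNP.

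The treated fibrotic groups were then set against CCl4 alone. The labels name no second injection or gavage for that group, and the authors do not say whether it received the gavage without 4MU. A treatment therefore cannot be told apart from its injection or gavage here. With siHAS2-LNP the siRNA also comes together with the particles, and these cannot be told apart here. These comparisons share the same 2 CCl4 mice. With 4MU, Plau and Plat were lower, 2 of 6 members (background 18.3%, and 10% lower). Plau was 4.85 times lower (log2 −2.28, SE 0.490, adjusted p = 0.00327) and Plat 3.5 times lower (log2 −1.81, SE 0.505, adjusted p = 0.0159), and in both genes every CCl4+4MU mouse was below both CCl4 mice, as for 21.5% of all genes. Plaur gave −0.87 (95% interval −1.90 to 0.15, adjusted p = 0.214) and Serpine2 −0.27 (adjusted p = 0.794). Without CCl4 mouse 2 none of the 6 passed, with −2.19 (adjusted p = 0.0639) for Plau and −0.82 (adjusted p = 0.506) for Plat. Without CCl4 mouse 1, Plau, Plat and Plg passed. The stellate marker sum was 199 to 523 CPM in CCl4+4MU mice, below both CCl4 mice, although none of the 7 markers passed, and 4 of 5 hepatocyte markers were higher. The sum of the infiltrating monocyte and macrophage markers was 262 to 495 CPM, above both CCl4 mice (180 and 234 CPM), with 1 of 5 markers higher and 1 lower. The part of these cells was not tested.

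With siHAS2-LNP, Plau, Plat and Plaur were lower than in CCl4 mice, 3 of 6 members (background 14.4%, and 7.33% lower). Plau was 4.82 times lower (log2 −2.27, SE 0.495, adjusted p = 0.00467), Plat 4.97 times (log2 −2.31, SE 0.517, adjusted p = 0.00543) and Plaur 3.55 times (log2 −1.83, SE 0.505, adjusted p = 0.0181). Every CCl4+siHAS2-LNP mouse was below both CCl4 mice in these genes and in Serpine2, as for 18.8% of all genes. Serpine2 gave −1.27 (95% interval −2.67 to 0.12, adjusted p = 0.202). Without the shallowest library the same 3 genes passed, with adjusted p = 0.0144 for Plau, 0.0117 for Plat and 0.0369 for Plaur, whereas Plaur was lost without mouse 3 (adjusted p = 0.0573). Without CCl4 mouse 2 no member passed, with −2.18 (adjusted p = 0.0754), −1.33 (adjusted p = 0.295) and −1.26 (adjusted p = 0.338). Of the stellate markers 3 of 7 were lower, with sums of 237 to 377 CPM, and of the resident macrophage markers 4 of 4, with sums of 27 to 44 against 149 and 151 CPM in the CCl4 mice. Of the endothelial markers 3 of 5 were lower (sums 53.1 to 65.6 against 84.9 and 101 CPM), of the mesothelial 2 of 3 (3.52 to 10.9 against 13.3 and 30.9 CPM) and of those of infiltrating monocytes and macrophages 1 of 5 (96.8 to 170 against 180 and 234 CPM). CCl4+siLuc-LNP mice also had resident macrophage sums below both CCl4 mice, at 51.2 to 86 CPM, with 1 of 4 markers lower. None of the 4 passed between CCl4+siHAS2-LNP and CCl4+siLuc-LNP mice. The part of these cells was not tested.

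With siLuc-LNP, none of the members passed against CCl4 (background 0.248%). The edgeR test gave 35 genes in all past the threshold and 2001 at an unadjusted p under 0.05, and DESeq2 and limma-voom called none of the members. Plau gave −0.85 (95% interval −1.87 to 0.17), Plat −0.65 (95% interval −1.70 to 0.41) and Plaur −0.62 (95% interval −1.65 to 0.41). The intervals are wide and include a fall of more than 3 times for each. Without CCl4+siLuc-LNP mouse 4, which had 18.2 CPM of Plau, the log2 fold change of Plau was −1.47 (adjusted p = 0.0495).

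The direct comparison of the 2 siRNAs in fibrotic mice, in which both groups received particles and have 4 mice, called none of the members in edgeR (background 1.09%, 154 genes, with 2349 at an unadjusted p under 0.05). Plat gave −1.67 (SE 0.456, adjusted p = 0.0685), Plau −1.42 (SE 0.433, adjusted p = 0.1), Plaur −1.21 (SE 0.442, adjusted p = 0.161) and Serpine2 −1.05 (SE 0.574, adjusted p = 0.368). In each of these the siHAS2-LNP group had the lower mean, and the groups overlapped. DESeq2 called Plau (adjusted p = 0.0328) and Plat (adjusted p = 0.0155), and so did edgeR with no filter on low counts (adjusted p = 0.000355 and 0.000657), whereas limma-voom called neither (adjusted p = 0.254 and 0.0964). The value for Serpine2 rests on CCl4+siLuc-LNP mouse 1: without it, the log2 difference was 0.01 (adjusted p = 0.997). The stellate marker sum was 237 to 377 CPM with siHAS2-LNP and 417 to 922 CPM with siLuc-LNP, with 1 of 7 markers lower. Resident macrophage sums, given above, and endothelial sums (53.1 to 65.6 against 76.2 to 92 CPM) were also lower without overlap, with no marker passing. Those of hepatocytes and of infiltrating monocytes and macrophages overlapped. The part of these cells was not tested.

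In mice without CCl4, no member passed for 4MU against control (background 0.00709%), siLuc-LNP against control (0.213%) or siHAS2-LNP against siLuc-LNP (0.0425%). By edgeR, 966, 960 and 1262 genes had an unadjusted p under 0.05 in these comparisons. Plau had 1.6, 1.59 and 3.12 CPM in siLuc-LNP against 0.531 to 1.42 CPM in control mice, where the groups did not overlap, as for 3.83% of all genes (log2 1.14, 95% interval 0.03 to 2.24, adjusted p = 0.695). The siHAS2-LNP mice, at 2.58, 1.98 and 1.97 CPM, were at a like level, with a log2 difference from siLuc-LNP of 0.04 (95% interval −1.08 to 1.16). Serpine2 gave −1.34 between the same groups (95% interval −2.93 to 0.25, adjusted p = 0.631), and they overlapped.

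Whether the treatments changed the effect of CCl4 itself was tested as an interaction, and no member passed in any of the 3 (background 5.67% for 4MU, 0.00709% for siLuc-LNP and 0.0354% for siHAS2-LNP relative to siLuc-LNP). For 4MU, edgeR gave 3603 genes with an unadjusted p under 0.05. Plau came nearest, with −2.20 (SE 0.758, adjusted p = 0.0785), and was called by DESeq2 (adjusted p = 0.0332), with no low-count filter (adjusted p = 0.00158) and in a fit of the 4 groups concerned (adjusted p = 0.0149). Its range over the other alternatives was an adjusted p of 0.0701 to 0.245. Plat gave −1.66 (SE 0.856, adjusted p = 0.224) and Plg 0.66 (SE 0.352, adjusted p = 0.240). The effect of CCl4 with siHAS2-LNP was not tested against that in mice without particles, so the values for Plau of 4.05 (95% interval 2.93 to 5.16) and 0.60 (95% interval −0.43 to 1.63) stand side by side without a test of their difference.

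Within the fibrotic groups, some members varied together from mouse to mouse. Over the 14 CCl4 mice, after the mean of each group was removed from log2 CPM, the correlation of Plaur with Plat was 0.92, of Plau with Plat 0.69 and of Plau with Plaur 0.65, and Plg and Serpinf2 had 0.68. Without the shallowest library these were 0.80, 0.56, 0.49 and 0.77 over 13 mice. Others went in opposite directions, with −0.50 for Plau and Plg, −0.45 for Plau and Serpinf2, −0.45 for Plat and Plg and −0.395 for Plaur and Plg. Without the shallowest library these were −0.43, −0.62, −0.38 and −0.29. Serpinf2 had −0.205 with Plat and −0.102 with Plaur over all 14, and −0.54 and −0.34 without that library. Serpine2 had −0.102 to 0.246 with the other 5, and −0.1 to 0.37 without that library. The points share depth and cell content, so these values are descriptions. The highest values with marker sums were those of Serpinf2 with hepatocytes (0.84) and of Serpine2 with stellate cells (0.79) and infiltrating monocytes and macrophages (0.81). Plg had 0.51 with the hepatocyte sum. With the stellate sum Plau had 0.51, Plat 0.58 and Plaur 0.34. With the sum of infiltrating monocytes and macrophages these had 0.57, 0.44 and 0.30, and with the mesothelial sum −0.01, −0.33 and −0.37. Serpine2 had −0.14 with the mesothelial sum. The highest Serpine2 value of the CCl4+siLuc-LNP group, 4.54 CPM in mouse 1, was in the mouse with the highest stellate sum of all, 922 CPM, and the highest of the CCl4+4MU group, 3.29 CPM in mouse 3, was in the mouse with the highest sum of that group, 523 CPM.

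**Figure D4:**
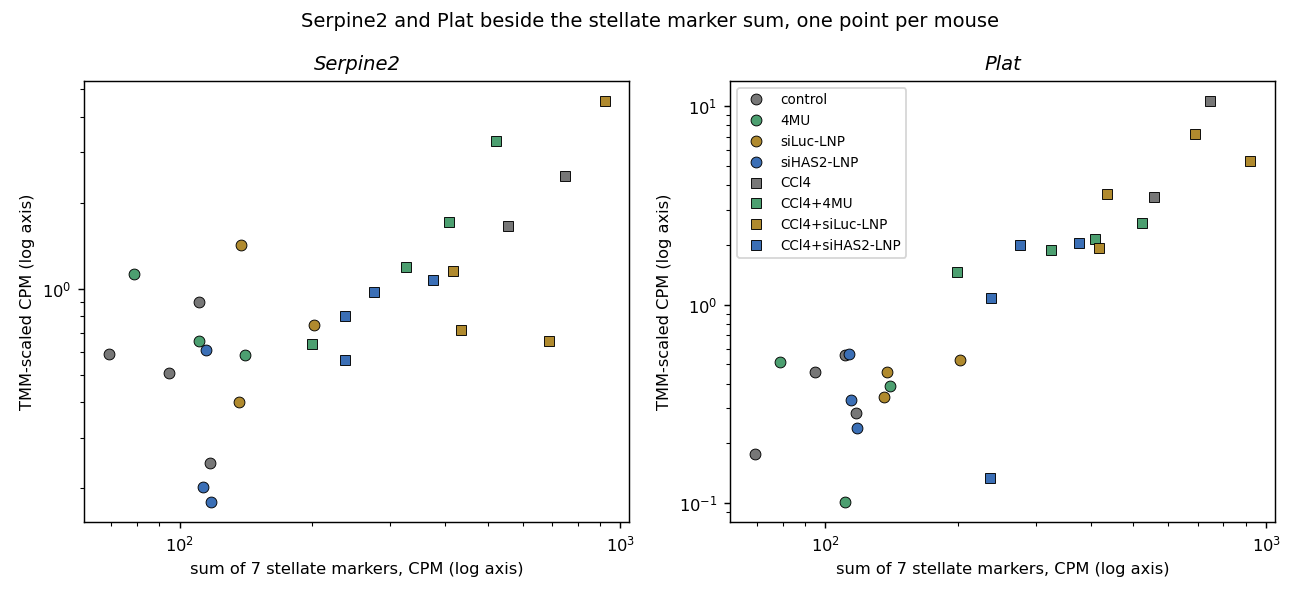
Serpine2 (left) and Plat (right) in TMM-scaled CPM against the sum of 7 stellate cell and myofibroblast markers in CPM, both on log axes, with 1 point per mouse, circles for mice without CCl4 and squares for mice with CCl4. CCl4+siLuc-LNP mouse 1 lies at a sum of 922 CPM with 4.54 CPM of Serpine2, and the square far below the others for Plat is the shallowest library, with 1 count.

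For each member, the 3 protein-coding genes were sought whose mean log2 CPM over the 8 groups was most like it by Pearson's correlation, given also as the correlation within groups over the 14 CCl4 mice. Plau was followed most closely by Cdc45, a factor of DNA replication (0.992, within groups 0.57), Pkm, a pyruvate kinase (0.987, within groups 0.82), and Tnfaip8 (0.986, within groups 0.75). For Plaur these were Rab31 (0.989, within groups 0.69), Serpinb6a (0.989, within groups 0.75) and Plpp1 (0.988, within groups 0.09). For Plat they were Rpsa, a ribosomal gene with many near copies (0.994, within groups −0.04), Ehd2 (0.994, within groups 0.60) and Rab31 (0.990, within groups 0.73). Rab31, a small GTPase, thus appeared for both Plaur and Plat, and the likeness of Plpp1 and Rpsa was not seen from mouse to mouse. Serpine2 had Sfxn3 (0.985, within groups 0.17), Ddr2, a collagen receptor (0.984, within groups 0.80), and Plxna4 (0.979, within groups 0.15). Plg had Ubtd1 (0.990, within groups 0.31), Gstm2 (0.986, within groups −0.02) and Keap1 (0.983, within groups 0.21), and Serpinf2 had Speg (0.986, within groups 0.03), Foxp4 (0.977, within groups −0.34) and Rhbdf2 (0.977, within groups 0.36). None of those of Plg and Serpinf2 exceeded 0.36 within groups.

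The other genes of the pathway were a list of 36, of which 34 were tested. Serpinb2 and Serpina5 had too few counts. In CCl4 against control mice 9 were higher, 11 lower (background 18% higher and 16.1% lower) and 14 did not pass. The median log2 fold change was 0.02 against −0.02 over all genes. The count falls from 20 to 7 without CCl4 mouse 2, and the 7 are F12, Kng1, Kng2, Anxa2, Igf2r, Serping1 and Hgfac. Of those lost, Thbd gave 0.69 (adjusted p = 0.418), Itgam 1.30 (adjusted p = 0.244), Hpn −0.29 (adjusted p = 0.431), Cpb2 −0.14 (adjusted p = 0.732) and Hgf 0.55 (adjusted p = 0.571) without that mouse, and Hrg, Vtn, Klkb1, Itgb2 and Serpini1 gave −1.09, −0.71, −0.76, 0.63 and 1.56 (adjusted p from 0.0657 to 0.247). In the treated arms fewer passed, as over all genes, of which 34.1% passed in CCl4 against control mice. The shares of all genes were 23.7% with 4MU, 24.2% with siLuc-LNP and 12.8% with siHAS2-LNP. With 4MU, 5 pathway genes were higher and 1 lower (background 13.2% higher and 10.5% lower). With siLuc-LNP it was 4 and 3 (13% and 11.2%), and with siHAS2-LNP 2 and 1 (7.74% and 5.09%).

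Genes of liver-made plasma proteins of the contact system were among those that fell. Of 8 other activators and contact proteases 5 were lower and 1 higher. F12, coagulation factor XII, went from a mean of 309 CPM in control to 134 CPM in CCl4 mice (log2 −1.21, SE 0.265, adjusted p = 0.00109), Klkb1, plasma prekallikrein, from 241 to 111 CPM (log2 −1.12, adjusted p = 0.00345), and Kng1, a kininogen, from 3950 to 1715 CPM (log2 −1.20, adjusted p = 0.000386). Kng2 gave −0.91 and Hpn, hepsin, −0.55 (adjusted p = 0.00093 and 0.0277), and the call of Hpn was lost in 4 of 13 alternative settings. The one that rose was St14, matriptase, an epithelial protease (log2 1.94, adjusted p = 0.0353), a call lost in 6 of 13 alternative settings, among them without CCl4 mouse 1 (1.6, adjusted p = 0.177) or mouse 2 (2.26, adjusted p = 0.0772). Klkb1 was also lower with CCl4 in the 4MU arm (−1.28, adjusted p = 0.000299) and the siLuc-LNP arm (−0.98, adjusted p = 0.00327).

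Of 5 genes for fibrin and its crosslinking (Fga, Fgb, Fgg, F13a1 and F13b) none passed in CCl4 against control mice, with a median of −0.08. The 3 fibrinogen chains had means of 7522 CPM in control and 7102 CPM in CCl4 mice for Fga, 8707 and 6954 CPM for Fgb, and 6259 and 4408 CPM for Fgg. For Fgg both CCl4 mice, at 4390 and 4425 CPM, were below every control mouse, the lowest at 4595 CPM (log2 −0.51, adjusted p = 0.115). F13a1, a chain of the crosslinking factor XIII, had means of 0.4975 and 1.15 CPM (log2 1.25, adjusted p = 0.0925).

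Among 6 plasminogen receptors and cofactors, Anxa2, which binds plasminogen and tissue plasminogen activator at the cell surface, rose most. It went from 13.4 CPM in control to 209.6 CPM in CCl4 mice (log2 3.97, SE 0.284, adjusted p = 1.1e-09), and was higher with CCl4 in each of the other arms (2.62, 3.59 and 2.53, adjusted p = 3e-07, 5.41e-09 and 9.83e-07 with 4MU, siLuc-LNP and siHAS2-LNP). Its partner S100a10 did not pass, with means of 114.6 and 132 CPM. Hrg, a plasma glycoprotein that binds plasminogen, fell by 1.45 (adjusted p = 0.00125) and Vtn, vitronectin, by 0.95 (adjusted p = 0.00409) on the log2 scale, both made by hepatocytes. Plgrkt fell by 0.70 (adjusted p = 0.0498) and was lost in 9 of 13 alternative settings, with an adjusted p of up to 0.406.

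Of 7 receptors that bind or clear the activators 3 were higher and none lower. Igf2r, which binds the urokinase receptor and plasminogen, rose by 0.90 (adjusted p = 0.00405), and was higher with CCl4 in each of the other arms (adjusted p = 0.0113, 0.00865 and 0.0472 with 4MU, siLuc-LNP and siHAS2-LNP). These calls were lost in 2 of 14, 1 of 14 and 9 of 14 alternative settings, with an adjusted p of up to 0.0888, 0.0628 and 0.243. With siHAS2-LNP these include the fit without the shallowest library (log2 0.64, adjusted p = 0.0686). Itgam and Itgb2, the subunits of an integrin of myeloid cells, rose by 2.55 and 0.90 (adjusted p = 0.00146 and 0.0147). The clearance receptor Lrp1 did not pass, at means of 582.5 and 632 CPM.

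The other inhibitors divided. Of 6 tested, 3 were higher and 2 lower. Serping1, the C1 inhibitor, which also inhibits kallikrein and factor XII, fell from 1093 to 380.4 CPM (log2 −1.52, SE 0.226, adjusted p = 1.47e-05), and Cpb2, a carboxypeptidase that protects fibrin from plasmin, by 0.67 (adjusted p = 0.0348). The call of Cpb2 was lost in 6 of 13 alternative settings. Serpini1, neuroserpin, an inhibitor of tissue plasminogen activator, rose by 1.89 (adjusted p = 0.0125) and Thbd, thrombomodulin, by 2.00 (adjusted p = 0.00145). A2m passed as well, but its control mice had at most 3 counts, so no fold change is given. Hgfac, the gene of the activator of hepatocyte growth factor, fell from 423.7 to 124 CPM (log2 −1.77, adjusted p = 1.89e-05), and Hgf rose by 1.17 (adjusted p = 0.0486). The call of Hgf was lost in 4 of 13 alternative settings.

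Many of the pathway genes that CCl4 lowered were higher in CCl4+4MU than in CCl4 mice. There 8 of 34 were higher and 1 lower (background 8.28% higher and 10% lower), with 25 not passing. F12 was higher by 1.30 (adjusted p = 0.00233), Kng1 by 1.16 (adjusted p = 0.00222), Kng2 by 0.81 (adjusted p = 0.00656) and Habp2, a hyaluronan-binding protease that can activate urokinase, by 0.73 (adjusted p = 0.0117). Hrg was higher by 1.62 (adjusted p = 0.00208), Vtn by 0.92 (adjusted p = 0.0118), Serping1 by 1.27 (adjusted p = 0.000953) and Hgfac by 1.43 (adjusted p = 0.00126). Anxa2, the one that was lower, gave −1.39 (adjusted p = 0.00189). The comparison shares its CCl4 mice with the one above, and no pathway gene passed without CCl4 mouse 2. The log2 values were then 1.17 for F12, 0.97 for Kng1, 0.69 for Kng2, 0.49 for Habp2, 1.26 for Hrg, 0.67 for Vtn, 1.12 for Serping1, 1.11 for Hgfac and −1.37 for Anxa2, with an adjusted p from 0.0506 to 0.258. Klkb1, by contrast, had means of 111 CPM in CCl4 and 108 CPM in CCl4+4MU mice.

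The interaction of 4MU with CCl4, which uses the 4MU mice as well, called 6 of the 34, against 5.67% of all genes passing (2.72% of all genes as higher and 2.95% as lower). Hrg (1.70, adjusted p = 0.0254), Hgfac (1.67, adjusted p = 0.0118), F12 (1.61, adjusted p = 0.0139), Kng1 (1.47, adjusted p = 0.0127) and Serping1 (1.43, adjusted p = 0.0116) had a higher effect of CCl4 with 4MU than without it, and Anxa2 a lower one (−1.35, adjusted p = 0.0392). The call of Anxa2 was lost in 10 of 20 alternative settings (adjusted p up to 0.176) and that of Hrg in 3 of 20. For Anxa2 these include the fit without CCl4+4MU mouse 4 (−1.33, adjusted p = 0.0718). No pathway gene passed without CCl4 mouse 2, where the log2 values were 1.35 for Hrg, 1.35 for Hgfac, 1.48 for F12, 1.28 for Kng1, 1.28 for Serping1 and −1.32 for Anxa2 (adjusted p from 0.102 to 0.186), and 10 passed without CCl4 mouse 1. The hepatocyte marker sum was 143000 to 171000 CPM in CCl4+4MU mice and 127000 to 153000 CPM in 4MU mice, and its part in these differences was not tested.

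In CCl4+siHAS2-LNP against CCl4 mice, 4 of 34 pathway genes were higher and 3 lower (background 7.11% higher and 7.33% lower). F12 (0.80, adjusted p = 0.0405), Kng1 (0.71, adjusted p = 0.0397), Serping1 (0.80, adjusted p = 0.017) and Plgrkt (1.00, adjusted p = 0.0187) were higher. Anxa2 (−1.16, adjusted p = 0.00781), Thbd (−1.57, adjusted p = 0.0229) and Mrc1 (−0.98, adjusted p = 0.0123) were lower. Mrc1, a collagen-binding receptor of macrophages and sinusoidal endothelium, went from 30.8 to 15.4 CPM, beside the lower resident macrophage markers given above. No pathway gene passed without CCl4 mouse 2, with 0.67 for F12, 0.52 for Kng1, 0.64 for Serping1, 0.76 for Plgrkt, −1.14 for Anxa2, −0.27 for Thbd and −1.08 for Mrc1 (adjusted p from 0.0921 to 0.852). The calls of F12 and Kng1 were lost in 7 of 13 and 9 of 13 alternative settings. Without the shallowest library the 5 that passed were Anxa2, Plgrkt, Mrc1, Serping1 and Thbd. St14 had its highest value, from 264 counts, in CCl4+4MU mouse 4, the mouse with the high bile duct markers.

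**Figure D5:**
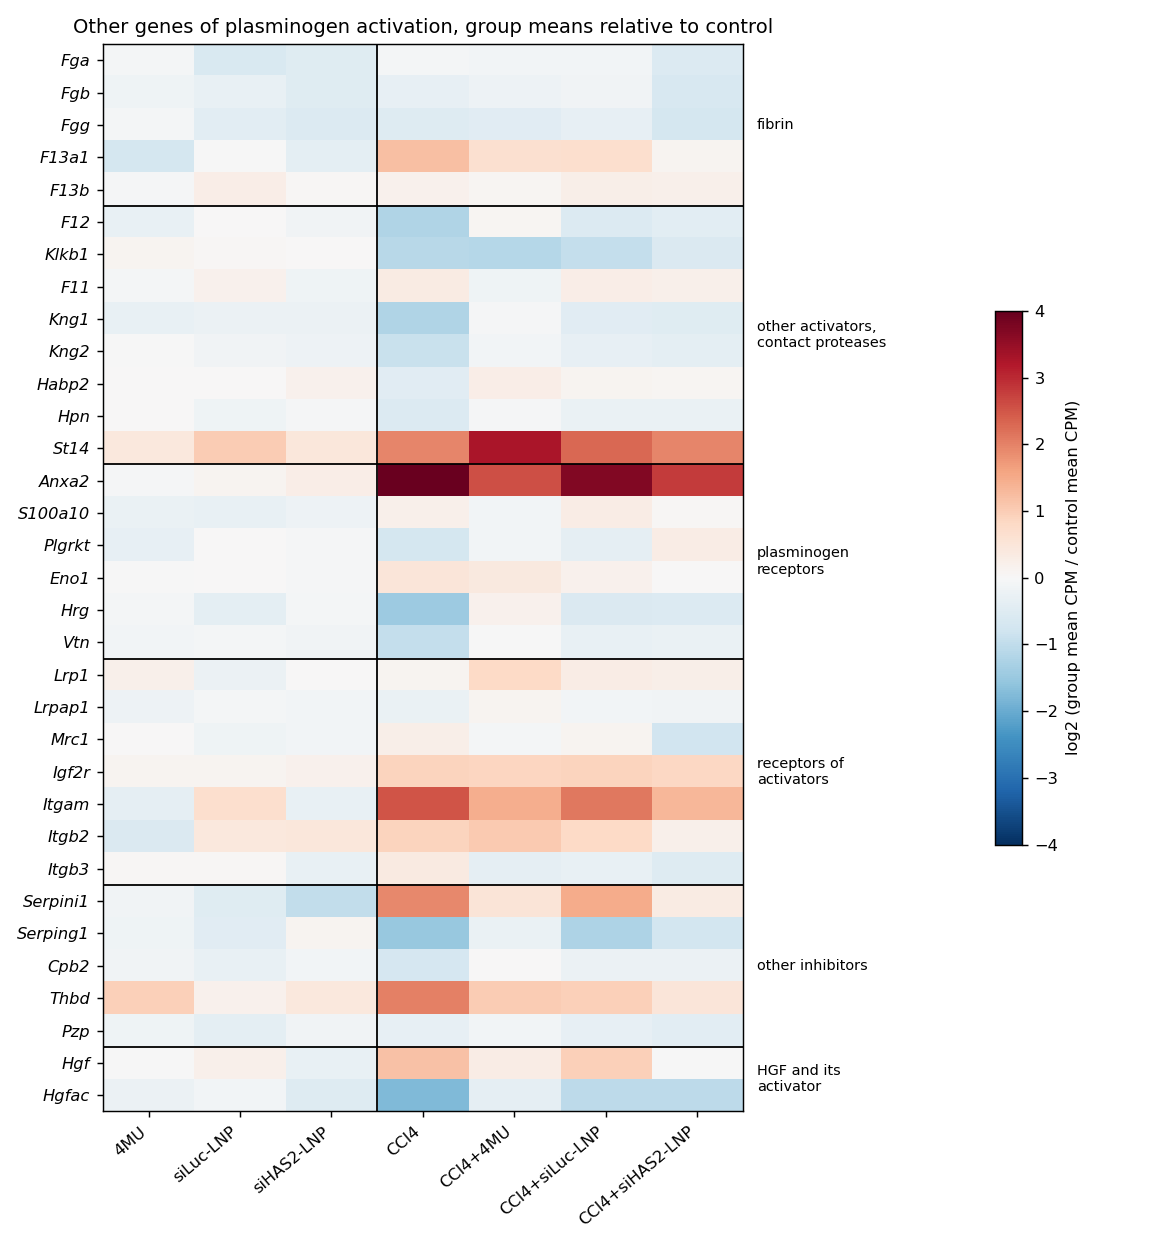
Log2 ratio of the mean CPM of each group to the control mean (colour, from −4 to 4) for the other pathway genes (rows, by role) in the other groups (columns), with Serpinb2, Serpina5 and A2m left out for low counts. Anxa2 is high in all 4 CCl4 groups, and F12, Kng1, Hrg, Serping1 and Hgfac are lower in CCl4 than in CCl4+4MU mice.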

How the data were processed

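RNA of whole liver from 27 mice was sequenced as paired reads with a directional library kit. The deposited values are raw read counts per Ensembl gene: the authors trimmed reads with Trimmomatic 0.39, aligned them with HISAT2 to GRCm39 and counted them per gene with featureCounts, leaving out multi-mapped reads. HISAT2's version and the strand setting of the counting were not given in the sources used here. Groups came from the sample labels, each library being a separate mouse.

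From these counts, CPM were computed with TMM scaling. Differences were tested with edgeR 4.0.16 (quasi-likelihood, R 4.3.3), with all 8 groups in a single fit without covariates, over the 14114 genes averaging at least 10 counts per library, with Benjamini-Hochberg adjustment and a threshold of 0.05. Intervals are 95% intervals on 19 residual degrees of freedom. The procedure was tested on simulated data. Alternatives used DESeq2 1.42.0, limma-voom (limma 3.58.1), other scalings and filters, a replicate block and leaving out each mouse. Replicate numbers did not pair the mice. Positions, overlaps and exon lengths came from GENCODE vM39 (GRCm39), which matched 54749 of the 55414 identifiers.

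The 6 members were named by symbol. Other named genes are those of the pathway and marker lists and the 3 genes most like each member by correlation of group means. Members and lists were chosen with earlier results of these data known.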

Additional observations from a re-analysis of the deposited data

Results flagged for a closer look

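In groups of 4 mice, the gap of the highest or lowest mouse to its neighbour was set against the whole range of the group for each member. Of 24 such groups, 2 had a gap above Dixon's 95% critical value, and chance gives about 1 in 20. Plau in CCl4+siHAS2-LNP was lowest in mouse 4, the shallowest library, at 1.2 CPM from 9 counts, against 3.64 to 4.05 CPM in the other mice. Serpine2 in CCl4+siLuc-LNP was highest in mouse 1, at 4.54 CPM from 116 counts, against 0.658 to 1.16 CPM in the other mice, and this mouse also had the highest stellate marker sum. The part of depth and of cell content in these values was not tested.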

How the results depend on the processing

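The rare members limit the precision: Plau, Plat, Plaur and Serpine2 had 2 to 71 counts in mice without CCl4. The CCl4 group has 2 mice, and without CCl4 mouse 2 the members' calls against it in the treated groups are lost, although Plau stayed at −2.19 (from −2.28) with 4MU and −2.18 (from −2.27) with siHAS2-LNP. Of the members' values under the alternatives, 1346 kept their direction and their side of the threshold, 30 fell below it, 15 passed it and 73 changed sign, the last all in values that did not pass. The cause of the changes below was not tested.

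Replicate numbers did not pair the mice, with correlations of −0.309 to 0.192 between same-numbered mice. With the replicate block, 3 members passed in CCl4 against control and 0 in CCl4+siHAS2-LNP against siHAS2-LNP, and the sign changed for Serpine2 in CCl4+4MU against CCl4 (0.027) and CCl4+siLuc-LNP against CCl4 (0.0105), Serpinf2 in CCl4+siHAS2-LNP against CCl4 (0.13) and Plau in 4MU against control (0.0696). With limma-voom, 0 members passed in CCl4+siHAS2-LNP against siHAS2-LNP, and Serpinf2 was 0.0471 in CCl4+siHAS2-LNP against CCl4. In CCl4+siHAS2-LNP against CCl4+siLuc-LNP, 2 members passed with DESeq2 and 2 with no low-count filter. In the interaction of 4MU, 1 passed with DESeq2, 1 with no filter and 1 with only the 4 groups concerned, and in that of siLuc-LNP 1 with no filter. Serpinf2 in the interaction of siHAS2-LNP was −0.0282 with DESeq2 and with its size factors, −0.0403 with no filter and −0.0417 with filterByExpr. The mean of Plau in CCl4 mice was 19.7 CPM on unscaled totals.

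Leaving out 1 mouse at a time, the number of members that passed ran from 0 to 1 in CCl4+siHAS2-LNP against siHAS2-LNP, 0 to 3 in CCl4+4MU against CCl4 and in CCl4+siHAS2-LNP against CCl4, and 0 to 1 in CCl4+siLuc-LNP against CCl4 (1 without CCl4+siLuc-LNP mouse 4), in CCl4+siHAS2-LNP against CCl4+siLuc-LNP (1 without CCl4+siLuc-LNP mouse 2 or 3) and in the interaction of siLuc-LNP (1 without CCl4+siLuc-LNP mouse 4). The log2 difference changed sign for these values, given as ranges. For CCl4 against control it ran from −0.36 to 0.59 for Serpinf2. In CCl4+4MU against 4MU it ran from −0.0708 to 0.19 for Plg. For CCl4+siLuc-LNP against siLuc-LNP it ran from −0.22 to 0.0971 for Plg and −0.002 to 1.6 for Serpine2. In CCl4+4MU against CCl4 it ran from −0.82 to 0.0222 for Serpine2 and −0.23 to 0.73 for Serpinf2. For CCl4+siHAS2-LNP against CCl4 it ran from −0.0472 to 0.74 for Plg and −0.43 to 0.53 for Serpinf2. In CCl4+siLuc-LNP against CCl4 it ran from −1.22 to 0.36 for Plat, −0.0766 to 0.705 for Plg, −1.29 to 0.099 for Serpine2 and −0.34 to 0.62 for Serpinf2. For CCl4+siHAS2-LNP against CCl4+siLuc-LNP it ran from −0.0456 to 0.19 for Plg, −1.38 to 0.0095 for Serpine2 and −0.22 to 0.0017 for Serpinf2. In 4MU against control it ran from −0.29 to 0.16 for Plau, −0.0032 to 0.65 for Plaur, −0.53 to 0.25 for Plat, −0.11 to 0.0898 for Plg and −0.0861 to 0.0692 for Serpinf2. For siLuc-LNP against control it ran from −0.0929 to 0.0651 for Serpinf2. In siHAS2-LNP against siLuc-LNP it ran from −0.12 to 0.45 for Plau, −0.48 to 0.29 for Plaur and −0.62 to 0.0194 for Plat. For the interaction of 4MU with CCl4 it ran from −0.22 to 0.75 for Serpinf2. In the interaction of siLuc-LNP with CCl4 it ran from −1.48 to 0.11 for Plat and −0.33 to 0.63 for Serpinf2. For the interaction of siHAS2-LNP (relative to siLuc-LNP) with CCl4 it ran from −0.26 to 1.35 for Serpine2 and −0.14 to 0.0745 for Serpinf2.

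For the pathway genes, and for the group levels and ratio without the shallowest library, the alternatives were chosen after seeing the data. In CCl4+siHAS2-LNP against siHAS2-LNP, 5 passed with DESeq2, 6 with no filter and 8 in a fit of just the 2 groups. In CCl4+siHAS2-LNP against CCl4, 13 passed with DESeq2 and 11 with limma-voom, and in the interaction of 4MU 10 with DESeq2. Without 1 mouse the counts ran from 7 to 20 in CCl4 against control, 0 to 14 in CCl4+4MU against CCl4, 0 to 11 in CCl4+siHAS2-LNP against CCl4 and 0 to 10 in the interaction of 4MU.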
